A study of Caenorhabditis elegans with 6 samples.

Results

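The enzymes of glycolysis, gluconeogenesis, the citric acid cycle and the glyoxylate shunt carry the main flow of carbon in an animal cell, and 39 genes that encode them in Caenorhabditis elegans are described here. They were matched by gene symbol in the deposited gene table, where all 39 were found among 47656 listed genes. They comprise 19 genes of glycolysis with lactate dehydrogenase, 3 of gluconeogenesis, 14 of the citric acid cycle with its pyruvate entry, and 3 of the glyoxylate cycle and trehalose synthesis. All 39 passed the filter on low counts, which 16506 genes passed in all.

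RNA-seq libraries were made from whole wild-type worms that were kept for 11 days at 20 °C from the last larval stage on. All animals were kept in complete S-Basal with FUDR at 200 µM, an inhibitor of DNA synthesis that blocks reproduction, and ampicillin, an antibiotic, at 100 µg/mL. The 3 libraries titled as vehicle had no further agent in their labels, and the 3 libraries titled as treated also had ilimaquinone, a quinone from marine sponges, at 100 µM. Whether replicates came from separate cultures is not stated, so the p-values measure the spread between these libraries only, which may be technical. Because whole animals were sequenced, fewer cells of a type and less RNA per cell cannot be told apart in any value below.

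Glycolysis splits glucose into pyruvate in the cytosol, and gluconeogenesis runs most of the same steps backwards, with separate enzymes only where a step cannot be reversed. The citric acid cycle oxidises acetyl-CoA in mitochondria. Worms also have a glyoxylate cycle, absent from mammals, which bypasses the steps of the citric acid cycle that release carbon dioxide and so lets acetyl-CoA from fat feed gluconeogenesis. Much of the glucose made in this way is stored as trehalose, a sugar of paired glucose units known in worms for its part in stress resistance.

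The libraries held 32155192 to 39244786 estimated counts each. Levels are given in CPM, counts scaled to a common library size with trimmed mean of M-values factors. Vehicle replicate 1 differed from the rest in its germline markers. The 17 markers of oocytes and germline summed to 3579.8 CPM in it, to 913 and 1103 CPM in vehicle replicates 2 and 3, and to 532 to 779 CPM in the ilimaquinone libraries. All 17 markers were detected and highest in that library, as were all 40 tested of 42 sperm markers and all 6 yolk protein genes. Markers of neurons had their lowest sum in it, 2240.4 CPM against 3588 to 4083 CPM elsewhere, and so did body wall muscle markers, 5138 CPM against 6176 to 6656 CPM. Intestine markers, 12 of 13 of them listed, ranged from 3099.6 to 4102 CPM and did not single out that library.

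Per length, icl-1 of the glyoxylate cycle and pck-2 of gluconeogenesis were the most abundant of the 39. Mean levels over the 6 libraries, in the deposited TPM (a share of each library's transcripts that corrects for transcript length), were 1606 for icl-1 and 1589 for pck-2, ranks 100 and 102 among all genes. The next were gpd-3 at 1000.3, cts-1 at 914, aldo-2 at 905 and mdh-1 at 723 TPM. At the low end, gpd-4 stood at 19.2, gpd-2 at 2.50 and pfk-1.2 at 0.949 TPM. The deposited gpd-3 model covers both gpd-3 and its neighbour gpd-2, so the split of levels between them is uncertain. Together the 39 genes made up 1.03 ± 0.0590% of all TPM in the vehicle libraries and 1.24 ± 0.0739% in the ilimaquinone libraries (mean ± SD, n = 3 each). The summed TPM of the gluconeogenesis genes was 1797, 2223 and 2169 in the vehicle libraries and 2924, 3045 and 2778 with ilimaquinone, without overlap. Glycolysis genes summed to 3270.3 to 3435 TPM in the vehicle libraries and 3971 to 4113 TPM with ilimaquinone. For the citric acid cycle the ranges overlapped, at 3051 to 3430.0 against 3227 to 3504 TPM. They also overlapped for the glyoxylate and trehalose genes, at 1309 to 1904.5 against 1822 to 2589 TPM. These sums were not tested.

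**Figure D1:**
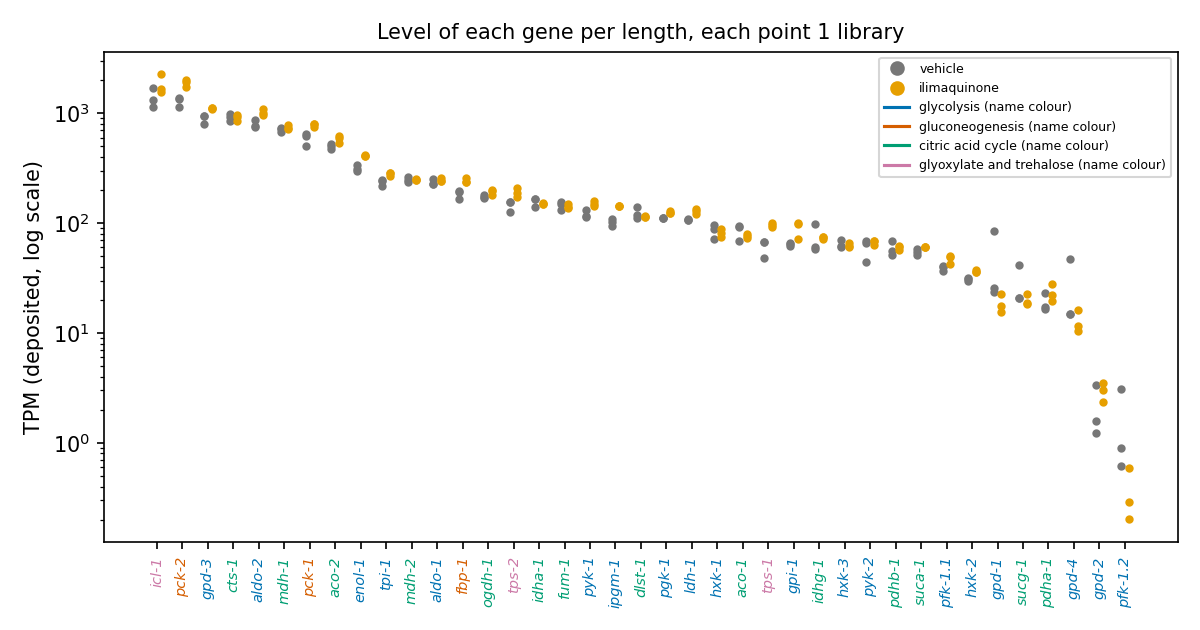
Level per length of each of the 39 genes in TPM (vertical axis, log scale), ordered by mean level, with 1 point per library, grey for vehicle and orange for ilimaquinone, and gene names coloured by pathway group. Levels run from 1606 TPM for icl-1 to 0.949 TPM for pfk-1.2, and gpd-1, gpd-4, sucg-1 and pfk-1.2 each have 1 vehicle library well above the others.

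Ilimaquinone was compared with vehicle to ask whether the levels of these genes differed. None of the 39 was called by the quasi-likelihood test of edgeR with Benjamini-Hochberg adjustment over all tested genes, called edgeR below, at an adjusted p under 0.05, where 1.47% of all tested genes were called, 1.14% higher and 0.327% lower. At an unadjusted p under 0.05, 9 of the genes were higher with ilimaquinone and 2 lower, against 10.1% and 11.8% of all tested genes. In 15 genes all 3 ilimaquinone libraries lay above all 3 vehicle libraries, and in 3 they lay below, against 15.8% and 15% of all tested genes. The fold change was positive for 27 of the 39, against 48.0% of all tested genes. DESeq2's Wald test called 11.3% of all genes it gave an adjusted p, 5.45% higher and 5.86% lower. It called 5 of them higher (gpi-1, ipgm-1, enol-1, pck-2 and tps-1) and pfk-1.2 lower. A limma-trend test on log2(TPM + 1), which called 1.68% of all tested genes higher, called ipgm-1 higher.

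The groups of genes differed in how their fold changes lay. The median log2 fold change, ilimaquinone minus vehicle, was 0.22 for glycolysis, 0.38 for gluconeogenesis, -0.00 for the citric acid cycle and 0.37 for the glyoxylate and trehalose genes, beside -0.02 over all tested genes. Positive values were found in 14 of 19, 3 of 3, 7 of 14 and 3 of 3 genes. Differences between the groups of genes were not tested.

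**Figure D2:**
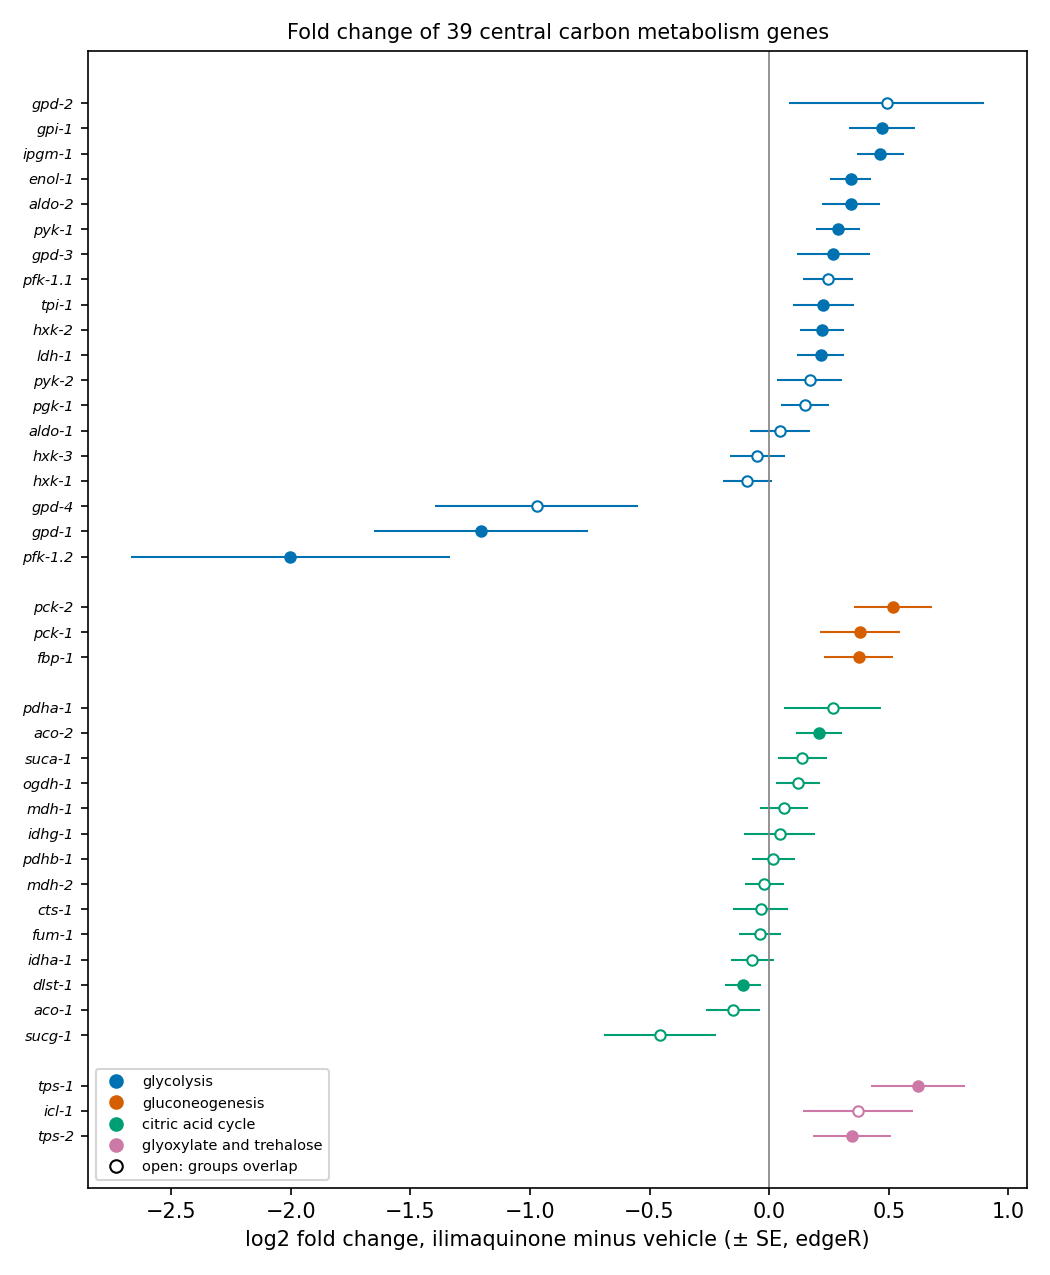
Log2 fold change of each of the 39 genes, ilimaquinone minus vehicle (horizontal axis, point and bar for the edgeR estimate ± SE), in 4 pathway groups. Filled points mark the 18 genes whose groups of 3 libraries do not overlap, the gluconeogenesis genes all lie above 0, and the citric acid cycle genes lie on both sides of 0.

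In glycolysis, the gene with the smallest p was ipgm-1 (gene 172376, chromosome I, 6569494 to 6572596, build WBcel235), the cofactor-independent phosphoglycerate mutase, which in worms is essential and unrelated to the mammalian enzyme. Its level was 141, 174 and 157 CPM in vehicle replicates 1, 2 and 3 and 218, 215 and 220.2 CPM in the ilimaquinone libraries. The ilimaquinone values lay close together and above every vehicle value. The log2 fold change was 0.47 ± 0.10 (SE, edgeR adjusted p = 0.0833). Over the alternatives the adjusted p of ipgm-1 ranged from 0.00191 in DESeq2 to 0.316 without 1 of the ilimaquinone libraries.

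The upper steps of glycolysis start with hexokinases, which phosphorylate glucose. Of the 3 genes, hxk-2 (gene 173022, chromosome I, 11311513 to 11323110) stood at 45.6, 51.8 and 51.5 CPM in the vehicle libraries and 57.6, 58.4 and 57.5 CPM with ilimaquinone. Its groups did not overlap, and the log2 fold change was 0.22 ± 0.09 (edgeR adjusted p = 0.223). The level of hxk-1 was 157, 168 and 139.8 CPM against 136, 154 and 146 CPM, and that of hxk-3 was 79.2, 103.6 and 93.6 CPM against 88.99, 92.2 and 85.9 CPM. In both the groups overlapped, with log2 fold changes of -0.09 ± 0.10 for hxk-1 and -0.05 ± 0.12 for hxk-3. The next enzyme, glucose phosphate isomerase, is encoded by gpi-1, which had 91.3 to 103.9 CPM in the vehicle libraries and 112, 151 and 150.3 CPM with ilimaquinone. The log2 fold change of gpi-1 was 0.47 ± 0.14 (edgeR adjusted p = 0.145; DESeq2 adjusted p = 0.0452; range over alternatives 0.0452 to 0.439).

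Phosphofructokinase makes the first step that commits sugar to glycolysis. Its main gene here, pfk-1.1 (gene 180583, chromosome X, 2940872 to 2945485), stood at 79.5, 94.2 and 88.1 CPM in the vehicle libraries. With ilimaquinone it stood at 108, 109 and 93.7 CPM, so that replicate 3 fell within the vehicle range (log2 fold change 0.25 ± 0.11, edgeR adjusted p = 0.235). The other gene, pfk-1.2 (gene 179335, chromosome V, 9531801 to 9534537), was the least abundant of the 39, with 191, 43 and 59 counts in the vehicle libraries and 16, 18 and 43 with ilimaquinone. In CPM these were 5.47, 1.27 and 1.895 against 0.415, 0.557 and 1.18. Its log2 fold change of -2.001 ± 0.67 (edgeR adjusted p = 0.171) was the most negative of the 39. DESeq2 called pfk-1.2 lower (adjusted p = 0.0388; range over alternatives 0.0388 to 0.455).

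Aldolase then cleaves fructose bisphosphate. The more abundant of its genes, aldo-2, had 752 to 976 CPM in the vehicle libraries and 1052 to 1176 CPM with ilimaquinone, without overlap (log2 fold change 0.34 ± 0.12, edgeR adjusted p = 0.186). The groups of aldo-1 overlapped (0.04 ± 0.12). Triose phosphate isomerase interconverts the cleavage products, and its gene tpi-1 had 189 to 258.6 CPM against 259.7 to 277 CPM (0.23 ± 0.13, edgeR adjusted p = 0.334; 0.10 without vehicle replicate 1). The highest vehicle and the lowest ilimaquinone value of tpi-1 nearly met.

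Glyceraldehyde phosphate dehydrogenase, which makes the first high-energy intermediate, is encoded by 4 genes. The most abundant glycolysis gene, gpd-3 (gene 180601, chromosome X, 3112083 to 3114742), had 1426, 1969 and 2069 CPM in the vehicle libraries and 2219.8, 2139 and 2219 CPM with ilimaquinone. The groups did not overlap, and vehicle replicate 1 was the lowest library (log2 fold change 0.27 ± 0.15, edgeR adjusted p = 0.337; 0.12 without that library). Its neighbour gpd-2 had 2.55, 6.27 and 2.41 against 4.22, 5.26 and 6.31 CPM, with overlap (0.49 ± 0.41). The deposited gpd-3 model covers all of both genes in the Ensembl annotation, and the deposited gpd-2 model (3112291 to 3116581) covers 84.0% of gpd-3 and 99.6% of the neighbouring mai-1 as well. What the gpd-2 value measures, and how reads were split among these genes, is therefore uncertain. Together the pair had 1429, 1975 and 2072 CPM in the vehicle libraries and 2224, 2145 and 2225 CPM with ilimaquinone.

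The other genes of that enzyme, gpd-1 (gene 174603, chromosome II, 10394127 to 10395349) and gpd-4 (gene 174578, chromosome II, 10171255 to 10172498), lay on the other side of 0. The level of gpd-1 was 69.1, 24.0 and 23.4 CPM in the vehicle libraries and 16.1, 13.8 and 20.7 CPM with ilimaquinone. The level of gpd-4 was 39.4, 14.2 and 15.1 CPM against 10.7, 9.43 and 14.9 CPM. Only gpd-1 had groups that did not overlap, and in both genes vehicle replicate 1 was far above the other 5 libraries. The log2 fold changes were -1.204 ± 0.45 for gpd-1 (edgeR adjusted p = 0.194) and -0.97 ± 0.43 for gpd-4 (edgeR adjusted p = 0.239), and -0.49 and -0.33 without that library. These genes are near-identical copies that could share reads, and their ratio stayed between 1.39 and 1.75 in all libraries. Together they had 109, 38.1 and 38.5 CPM against 26.7, 23.2 and 35.6 CPM.

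The genes of the steps after glyceraldehyde phosphate dehydrogenase, which lead to pyruvate and lactate, all had positive fold changes. For enol-1, the enolase gene, the vehicle libraries had 381, 402 and 406 CPM and the ilimaquinone libraries 514, 473 and 519 CPM. These groups did not overlap, and the log2 fold change was 0.34 ± 0.09 (edgeR adjusted p = 0.115; DESeq2 adjusted p = 0.00771; range over alternatives 0.00771 to 0.380). Pyruvate kinase makes pyruvate, and its gene pyk-1 had 218 to 246 CPM against 261 to 297 CPM (0.29 ± 0.09, edgeR adjusted p = 0.167). The groups of the second pyruvate kinase gene, pyk-2, overlapped (0.17 ± 0.14), as did those of pgk-1, the phosphoglycerate kinase gene (0.15 ± 0.10). Lactate dehydrogenase, which reduces pyruvate to lactate, is encoded by ldh-1, at 90.2 to 109.8 CPM against 113.2 to 120.1 CPM (0.22 ± 0.10, edgeR adjusted p = 0.257; 0.13 without vehicle replicate 1).

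**Figure D3:**
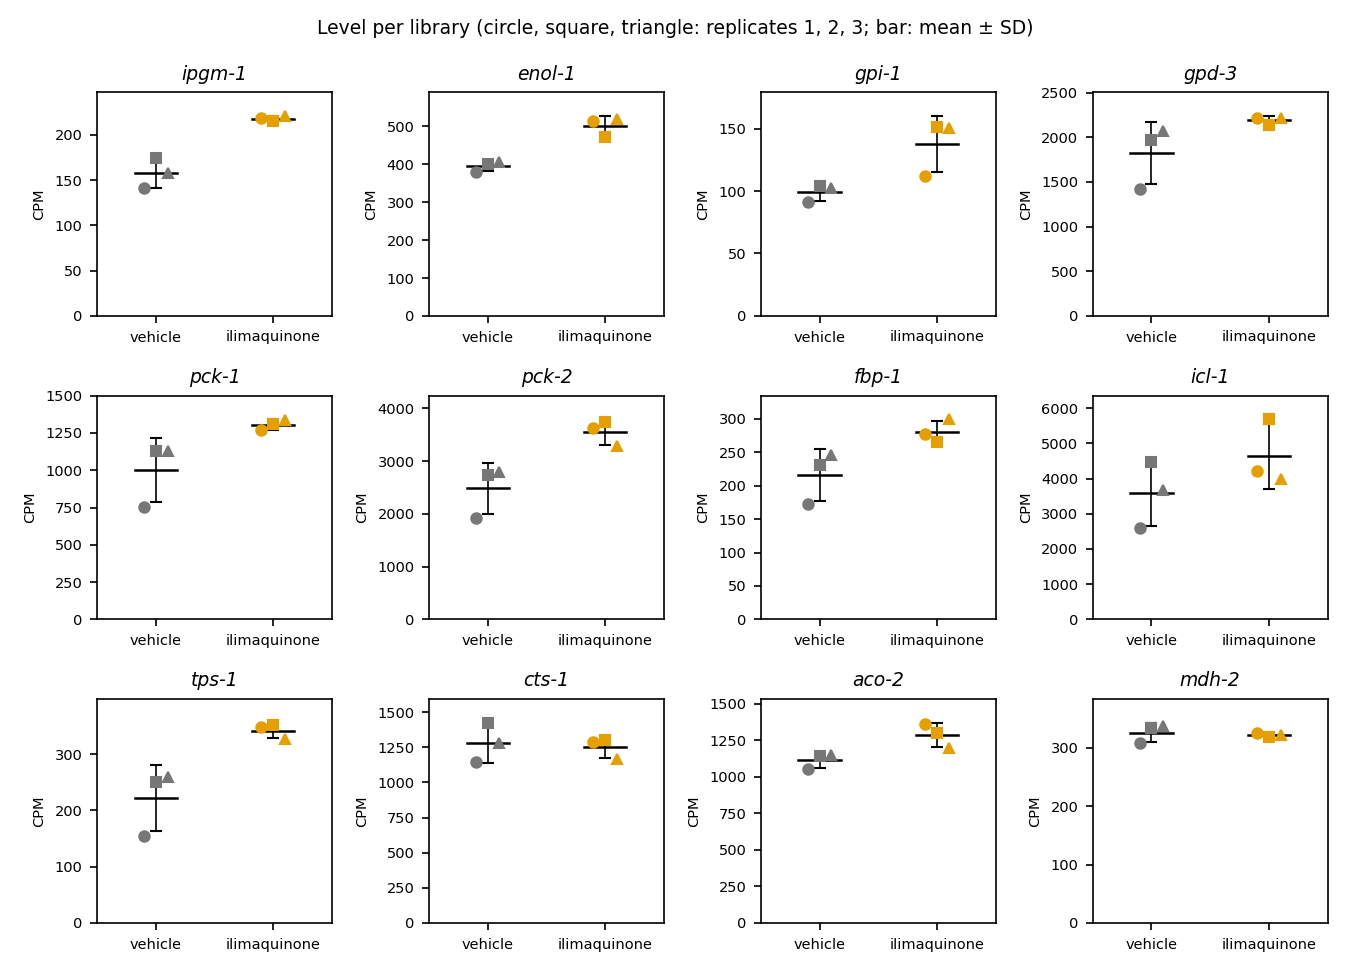
Level in CPM (vertical axes, from 0) of 12 of the genes in each library, with vehicle in grey and ilimaquinone in orange; circles, squares and triangles are replicates 1, 2 and 3, and bars are the mean ± SD (n = 3). The ilimaquinone values lie above all vehicle values for ipgm-1, enol-1, gpi-1, gpd-3, pck-1, pck-2, fbp-1, tps-1 and aco-2, and overlap them for icl-1, cts-1 and mdh-2.

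All 3 gluconeogenesis genes had higher levels in every ilimaquinone library than in any vehicle library, as did 15.8% of all tested genes. None of the 3 was called by edgeR, and all 3 were lowest in vehicle replicate 1. Phosphoenolpyruvate carboxykinase starts gluconeogenesis from oxaloacetate. Its main gene is pck-2 (gene 172556, chromosome I, 7866136 to 7872100 in the Ensembl annotation). The deposited model is far longer, from 7741437 to 7911654, so whether its counts include reads from outside that gene is uncertain. The level of pck-2 was 1930.1, 2731 and 2786 CPM in the vehicle libraries and 3632, 3736 and 3283 CPM with ilimaquinone. Vehicle replicate 1 was the lowest, and the log2 fold change was 0.52 ± 0.16 (edgeR adjusted p = 0.163) with it and 0.36 without it. DESeq2 called pck-2 higher (adjusted p = 0.0397; range over alternatives 0.0397 to 0.450). The second gene, pck-1, had 756, 1126 and 1129 CPM against 1267, 1311 and 1337 CPM (0.38 ± 0.17, edgeR adjusted p = 0.239; 0.21 without vehicle replicate 1). For fbp-1, which encodes fructose bisphosphatase, the enzyme that opposes phosphofructokinase, the values were 173, 231 and 246 CPM against 277, 266 and 299 CPM. The log2 difference of fbp-1 was 0.37 ± 0.14 (edgeR adjusted p = 0.203; 0.23 without vehicle replicate 1).

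The citric acid cycle genes had log2 fold changes from -0.46 for sucg-1 to 0.27 for pdha-1, with SEs of 0.07 to 0.24. No gene of the 14 was called by edgeR or DESeq2 or had an unadjusted edgeR p under 0.05. The most abundant was cts-1 (gene 176437, chromosome III, 10214771 to 10216635), citrate synthase, which joins acetyl-CoA to oxaloacetate. It had 1143, 1423 and 1280.0 CPM in the vehicle libraries and 1286, 1302 and 1167 CPM with ilimaquinone. The groups overlapped fully, and the fold change was -0.03 ± 0.11 on the log2 scale (edgeR adjusted p = 0.873).

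Aconitase turns citrate into isocitrate. The mitochondrial form, aco-2 (gene 176121, chromosome III, 7973714 to 7977355), had the smallest p of the 14, at 1051, 1146 and 1148 CPM in the vehicle libraries and 1362, 1299.6 and 1201 CPM with ilimaquinone. Its groups did not overlap (log2 fold change 0.21 ± 0.10, edgeR adjusted p = 0.262). The cytosolic form, aco-1, had 189, 222 and 170.2 CPM against 177, 176 and 169 CPM, with overlap (-0.15 ± 0.11, edgeR adjusted p = 0.446). The other gene without overlap was dlst-1, a subunit gene of the oxoglutarate dehydrogenase complex, at 161 to 167 CPM against 149 to 155 CPM (-0.11 ± 0.07, edgeR adjusted p = 0.405).

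The other genes of the cycle overlapped between groups. The isocitrate dehydrogenase subunit genes idha-1 and idhg-1 had log2 fold changes of -0.07 ± 0.09 and 0.04 ± 0.15. The pyruvate dehydrogenase subunit genes pdha-1 and pdhb-1, which feed the cycle, had 0.27 ± 0.20 and 0.02 ± 0.09. The oxoglutarate dehydrogenase gene ogdh-1 had 0.12 ± 0.09, the fumarase gene fum-1 had -0.04 ± 0.09, and the malate dehydrogenase genes mdh-1 and mdh-2 had 0.06 ± 0.10 and -0.02 ± 0.08. Succinyl-CoA ligase makes a nucleotide triphosphate in the cycle, and its subunit genes suca-1 and sucg-1 had 0.14 ± 0.10 and -0.46 ± 0.24. For sucg-1 vehicle replicate 1 was high, at 43.8 CPM against 25.2 and 26.7 CPM in replicates 2 and 3 and between 21.03 and 26.7 CPM after ilimaquinone. In pdha-1, 12.8% of the exon bases also belong to gpcp-2 on the other strand, so its value is uncertain without the strand setting of the counting.

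The glyoxylate cycle gene icl-1 (gene 178583, chromosome V, 724332 to 728103), which encodes isocitrate lyase and malate synthase in a single protein, was the most abundant of the 39. It had 2596, 4458 and 3688 CPM in the vehicle libraries and 4223, 5678 and 3985 CPM with ilimaquinone. The groups overlapped, and the replicates differed widely in both (log2 fold change 0.37 ± 0.23, edgeR adjusted p = 0.368). Trehalose phosphate synthase makes the precursor of trehalose. Of its genes, tps-1 (gene 181778, chromosome X, 17467121 to 17474585) had 155, 251 and 260.1 CPM in the vehicle libraries and 347.5, 352 and 326 CPM with ilimaquinone, without overlap. The log2 fold change of tps-1 was the highest of the 39, at 0.62 ± 0.19 (edgeR adjusted p = 0.161), and DESeq2 called it higher (adjusted p = 0.0440; range over alternatives 0.0388 to 0.438). For tps-2 the values were 337, 479.8 and 503 CPM against 560.5, 596 and 522 CPM, also without overlap (0.35 ± 0.16, edgeR adjusted p = 0.262). Without vehicle replicate 1 the log2 fold changes of icl-1 and tps-2 were both 0.18.

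Vehicle replicate 1 held the lowest value of 26 of the 39 genes, against 32.5% of all tested genes, and the highest of 7, against 33.6%. The 7 were pfk-1.2, gpd-1, gpd-4, sucg-1, dlst-1, pdhb-1 and idhg-1. Without that library, edgeR called 4.31% of all tested genes, 2.68% higher and 1.63% lower, and 2 of the 39 higher, ipgm-1 (log2 fold change 0.39, adjusted p = 0.0411) and tps-1 (0.42, adjusted p = 0.0388). The median log2 fold change of the 39 genes was then 0.12 in place of 0.17. By group it was 0.13 for glycolysis, 0.23 for gluconeogenesis, -0.04 for the citric acid cycle and 0.18 for the glyoxylate and trehalose genes, beside -0.01 over all tested genes. The negative fold change of pfk-1.2 became -1.14 and that of sucg-1 -0.16. The germline, sperm and yolk markers described above were highest in the same library, and the part of germline RNA in these values was not tested.

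**Figure D4:**
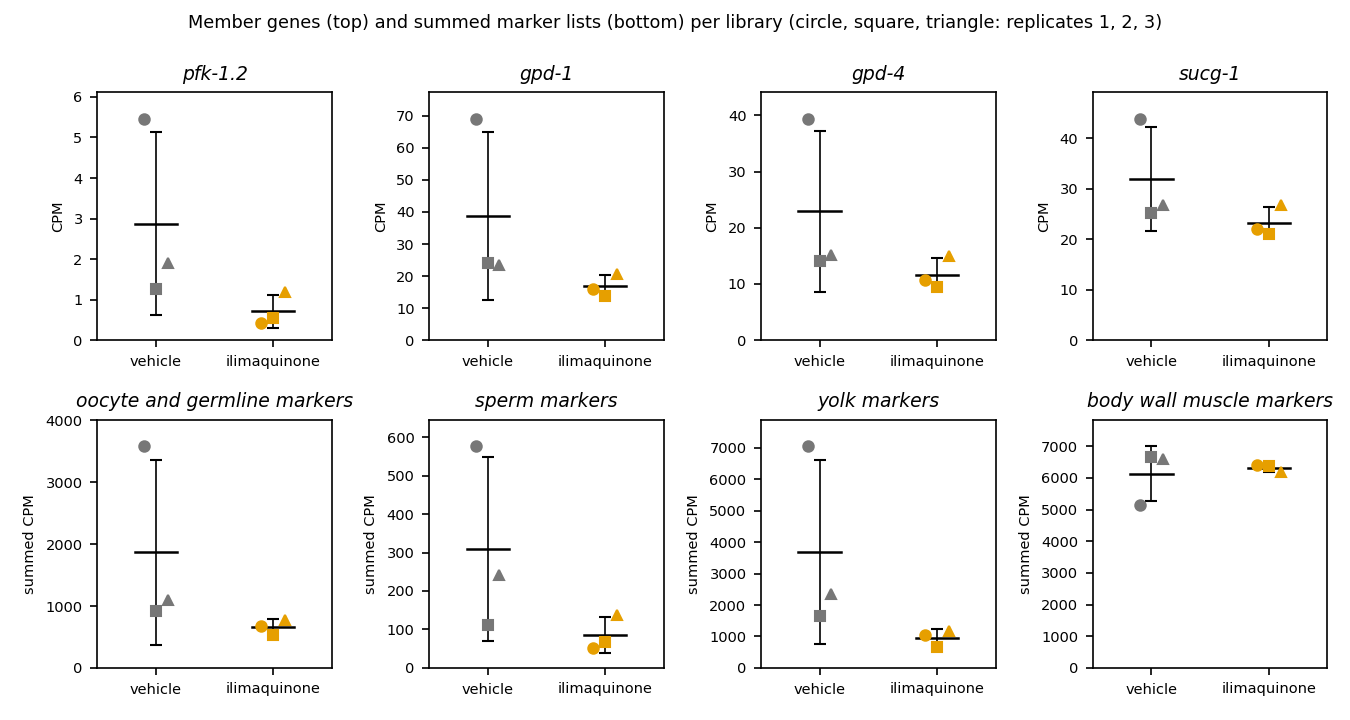
Levels in CPM per library of pfk-1.2, gpd-1, gpd-4 and sucg-1 (top) and summed CPM of oocyte and germline, sperm, yolk and body wall muscle markers (bottom), with symbols as replicates and bars as mean ± SD (n = 3). Vehicle replicate 1, the grey circle, is the highest library in every panel but that of muscle, where it is the lowest at 5138 CPM.

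**Figure D5:**
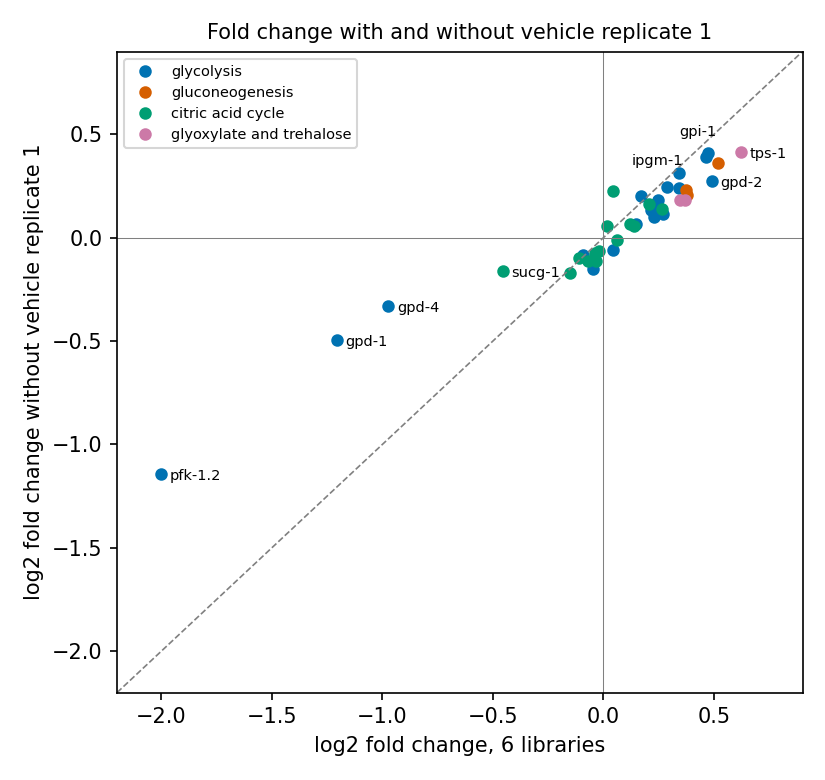
Log2 fold change of the 39 genes with all 6 libraries (horizontal axis) and without vehicle replicate 1 (vertical axis), coloured by pathway group, with the dashed line marking equal values. Without that library tps-1 (0.62 and 0.42) and pfk-1.2 (-2.001 and -1.14) lie nearer to 0, and idhg-1 (0.04 and 0.23) lies farther from it.

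Within an enzyme family, the share of each gene in the family's summed TPM shows whether the mix of isoenzymes differed. An exact permutation test (two-sided) was run on 16 shares, where 3 libraries against 3 cannot give a p below 0.1, and the smallest adjusted p was 0.2. The share of tps-1 in trehalose phosphate synthase was 27.7, 30.4 and 30.0% in the vehicle libraries and 34.0, 32.8 and 34.6% with ilimaquinone, without overlap. The share of hxk-2 in hexokinase was 16.7, 16.4 and 18.2% against 20.8, 19.4 and 20.1%, also without overlap. That of aco-1 in aconitase was 14.8, 15.8 and 12.5% against 11.2, 11.6 and 12.0%. Within their own family, the shares of tps-1 and hxk-2 were thus higher and that of aco-1 lower in every ilimaquinone library (exact permutation p = 0.1, adjusted p = 0.2 for each).

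In the glyceraldehyde phosphate dehydrogenase family, gpd-1 and gpd-4 together made up 14.2, 4.04 and 3.89% in the vehicle libraries and 2.55, 2.30 and 3.37% with ilimaquinone. The share of gpd-3 was 85.6, 95.6 and 96.0% against 97.2, 97.4 and 96.3%. The share of pfk-1.1 in phosphofructokinase was 92.8, 98.5 and 97.6% against 99.6, 99.4 and 98.6%. The groups did not overlap for these shares, and vehicle replicate 1 stood away from the other vehicle libraries in each. The share of gpd-2, 0.124 to 0.339% in the vehicle libraries and 0.205 to 0.305% with ilimaquinone, overlapped. Because the deposited gpd-3 model covers both genes, the split between the shares of gpd-2 and gpd-3 is uncertain. For aldolase, pyruvate kinase, phosphoenolpyruvate carboxykinase, malate dehydrogenase and succinyl-CoA ligase the shares overlapped between groups. In these families aldo-2, pyk-1, pck-2, mdh-1 and suca-1 held the larger share in every library.

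At the level of transcripts, 63 transcripts of the 39 genes were listed and tested, and 17 genes had more than 1. None was called by edgeR, where 0.292% of all tested transcripts were called, and the smallest adjusted p was 0.226. At an unadjusted p under 0.05 there were 8 higher and 3 lower, against 7.51% and 8.14% of all tested transcripts. In pyk-1, the 3187-base transcript held 8.55, 10.7 and 13.5% of the gene's counts in the vehicle libraries and 5.54, 3.53 and 4.04% with ilimaquinone. On the log2 scale that transcript had -1.04 ± 0.29 (edgeR adjusted p = 0.231), while the gene as a whole had 0.29 ± 0.09. This transcript was chosen after its values were seen.

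Related pathways were read from lists chosen by function, with earlier results of these data known. Of 7 tested genes of the pentose phosphate pathway, which branches from glycolysis and makes NADPH, all had positive fold changes, as did 48.0% of all tested genes. Of the 7, 5 were higher at an unadjusted edgeR p under 0.05, beside 10.1% of all tested genes, and 1 was called higher, beside 1.14%. The called gene was T25B9.9 (gene 177971, chromosome IV, 10767287 to 10777760), the phosphogluconate dehydrogenase gene, whose enzyme makes NADPH. It rose from 135, 138 and 148 CPM in the vehicle libraries to 211, 197 and 211 CPM with ilimaquinone. The log2 fold change was 0.55 ± 0.08 (edgeR adjusted p = 0.0365; range over alternatives 1.98e-06 to 0.221). The call was lost when any library other than vehicle replicate 1 was left out, and also with upper-quartile factors, without a filter on low counts and with the replicate number as a block. The other 6 genes, gspd-1, tkt-1, tald-1, rpia-1, F08F8.7 and Y57G11C.3, had log2 fold changes of 0.00 to 0.32, and the median of the 7 was 0.23. The value of Y57G11C.3 was 0.00 ± 0.10. Without vehicle replicate 1 it was -0.04, and 6 of the 7 were positive.

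Of 6 genes listed for the handling of methylglyoxal, a toxic by-product of glycolysis, and alcohols, 1 was called higher by edgeR, beside 1.14% of all tested genes. The 6 include acs-19, which encodes an acetyl-coenzyme A synthetase. DESeq2 called 2 higher, beside 5.45% of all genes, and 2 were higher at an unadjusted edgeR p under 0.05, beside 10.1%. The gene called by edgeR was djr-1.2 (gene 183625, chromosome V, 4054074 to 4055125), which encodes a glyoxalase that needs no glutathione. It rose from 1.06, 1.24 and 1.48 CPM to 5.0, 4.83 and 4.96 CPM. This is 1.97 ± 0.22 on the log2 scale (edgeR adjusted p = 0.0160; range over alternatives 1.17e-11 to 0.141). The call was lost when any ilimaquinone library was left out and with the replicate block. The median of the 6 was 0.25, and all 6 fold changes were positive, as were 48.0% of those of all tested genes. Those of acs-19 (0.00 ± 0.11), glod-4 (0.03 ± 0.10) and djr-1.1 (0.06 ± 0.09) were smaller than their SEs. The alcohol dehydrogenase genes sodh-1 and sodh-2 had 0.44 ± 0.23 and 1.35 ± 0.38. Without vehicle replicate 1, 5 of the 6 were positive.

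None of 24 tested partners of pyruvate and citric acid cycle metabolism was called by edgeR, and their median log2 fold change was 0.00. DESeq2 called 2 of them higher and 1 lower, beside 5.45% and 5.86% of all genes. At an unadjusted edgeR p under 0.05, 4 were higher and 2 lower, beside 10.1% and 11.8%. The smallest p belonged to acly-1, a gene of ATP citrate lyase, which makes cytosolic acetyl-CoA, at 109.8, 104.2 and 99.4 CPM against 130.4, 129 and 129 CPM (0.31 ± 0.08, edgeR adjusted p = 0.121). Without vehicle replicate 1 edgeR called 2 of the partners, 1 higher and 1 lower, beside 2.68% and 1.63% of all tested genes. They were acly-1, higher (adjusted p = 0.0415; range over alternatives 0.0172 to 0.398), and mpc-2, lower (adjusted p = 0.0320; range over alternatives 0.0136 to 0.433). The gene mpc-2, of the mitochondrial pyruvate carrier, was named after its values were seen and had 50.2, 59.6 and 55.03 CPM against 42.4, 41.4 and 43.6 CPM, without overlap. Its fold change on the log2 scale was -0.37 ± 0.10 with all libraries (edgeR adjusted p = 0.129). The other listed gene of that carrier, mpc-1, also named after its values were seen, lay in the opposite direction. It had 25.6, 32.2 and 26.1 CPM against 42.8, 43.4 and 34.35 CPM, without overlap (0.52 ± 0.15, edgeR adjusted p = 0.138). None of 16 tested genes of glycogen and trehalose handling was called by edgeR, while DESeq2 called 2 higher and 2 lower, beside 5.45% and 5.86% of all genes. At an unadjusted edgeR p under 0.05, 3 of the 16 were higher and 2 lower, beside 10.1% and 11.8% of all tested genes, and the median was 0.16. Among them tre-4, a trehalase gene, had the smallest p, at 5.84, 7.10 and 7.20 CPM against 9.66, 10.7 and 9.16 CPM (0.55 ± 0.16, edgeR adjusted p = 0.149). None of 8 regulators was called by edgeR or DESeq2, with 3 higher at an unadjusted edgeR p under 0.05, beside 10.1% of all tested genes, and a median of 0.12. The smallest p was that of egl-9, the oxygen-sensing hydroxylase gene that restrains HIF-1, at 90.3, 138 and 119 CPM against 162, 168 and 151.5 CPM (0.47 ± 0.16, edgeR adjusted p = 0.173).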

How the data were processed

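Poly(A) RNA of whole worms was measured in 3 vehicle and 3 ilimaquinone libraries, grouped by title. The submitters' processing notes name bcl2fastq 2.20.0, HISAT2 2.1.0, SAMtools 1.9 and the build WBcel235. Neither the counting program nor its use of strand is given in the sources used here, nor is the annotation's release. Per the file headers, the authors deposited estimated counts (headed as read counts and whole), FPKM and TPM for genes and transcripts. FPKM was not used for any result, and the deposited TPM was used for levels per length and shares.

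The estimated counts as deposited were tested with edgeR 4.0.16 in R 4.3.3, with filterByExpr, trimmed mean of M-values factors and Benjamini-Hochberg adjustment over all tested genes or transcripts at 0.05. The SE is the log2 fold change over the root of its F statistic. Alternatives were DESeq2 1.42.0, limma-trend (limma 3.58.1) on log2(TPM + 1) and log2(TPM + 0.1), other scalings and filters, a replicate block and leaving out each library. DESeq2 gave 16182 genes an adjusted p. The fits were checked on simulated data, in which the changed genes or transcripts were drawn at random from all those tested. There the gene fit recovered 28.9% of 2-fold and 71.3% of 4-fold changes, and the transcript fit 0% and 9.18%. A gene or transcript without a call can therefore not be taken as unchanged. These shares cover genes of all levels, so they are not recovery rates of the 39 genes. Changes under 2-fold were not simulated. Gene positions span the transcripts that the authors list (WBcel235), and 35 of 39 loci lay within 1000 bases of the Ensembl annotation at both ends.

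All 39 genes were named. Values in every library were given for the gene with the smallest p and the most abundant in each of the 4 groups, for families with an isoenzyme share that did not overlap, and for called genes or the smallest p in related lists. Others, such as gpi-1, enol-1, pck-1, fbp-1 and sucg-1, were given after their values were seen. The genes and lists were chosen with earlier results of these data known.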

Additional observations from a re-analysis of the deposited data

How the results depend on the processing

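No call was made among the 39 genes with edgeR under DESeq2 size factors, upper-quartile factors, library size alone, all genes kept whatever their counts, a stricter minimum (1 CPM in 3 libraries, 50 counts in total) or the replicate block. Over all genes, 242 calls became 1831 with DESeq2, 69 without a filter, 22 with the replicate block and 11 to 725 with 1 library left out. With DESeq2, 11.3% of all genes given an adjusted p were called. It called 4 glycolysis genes (3 higher, 1 lower), and 1 gluconeogenesis gene and 1 glyoxylate or trehalose gene, each higher. It also called 3 partners (2 higher, 1 lower), 4 glycogen or trehalose genes (2 higher, 2 lower) and 2 methylglyoxal or alcohol genes, each higher. limma-trend called 1 glycolysis gene with either pseudocount. With 1 library left out, 0 to 1 glycolysis genes, 0 to 1 glyoxylate or trehalose genes, 0 to 2 partners, 0 to 1 pentose phosphate genes and 0 to 1 methylglyoxal genes were called. The pentose phosphate call became 0 with upper-quartile factors, without a filter and with the replicate block, and the methylglyoxal call became 0 with the block. The causes were not tested.

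Of 585 alternative fold changes of the 39 genes, 15 changed sign, all of genes near 0. For pdhb-1 they were -0.00067 with upper-quartile factors, -0.0096 by library size alone and -0.0080 with the stricter minimum. With 1 library left out the log2 fold change ranged from -0.150 to 0.0255 for hxk-3, -0.0617 to 0.149 for aldo-1, -0.0318 to 0.0586 for pdhb-1, -0.114 to 0.0290 for cts-1, -0.0626 to 0.225 for idhg-1, -0.0813 to 0.0029 for fum-1 and -0.0100 to 0.0953 for mdh-1. Same-numbered libraries deviated together with correlations of -0.16, 0.29 and -0.16, so the numbers were not taken as pairs, and the block moved the count of calls from 242 to 22. The lowest counts per library among the 39 genes were those of pfk-1.2, at 16 to 191.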

Other observations

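For several genes 1 library differed from the others in which transcript held the counts. The 1105-base transcript of ldh-1 held 72.8% of the gene's counts in ilimaquinone replicate 2 and 0.533 to 1.05% in the other libraries. The 1398-base transcript of enol-1 held 64.5% in that library and 30.8 to 39.4% elsewhere. The 2015-base transcript of hxk-1 held 25.2% there and 4.34 to 10.4% elsewhere. The 2616-base transcript of aco-2 held 7.12% in ilimaquinone replicate 1 and 0.121 to 0.554% elsewhere. These transcripts were chosen after their values were seen, and the sources used here do not say how reads were assigned to transcripts.

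Some related genes shared the pattern of high values in vehicle replicate 1, and were chosen for it. The glycogenin gene gyg-2 had 70.1 CPM there, 19.01 and 19.8 CPM in replicates 2 and 3 and between 10.4 and 15.5 CPM after ilimaquinone. The carboxykinase gene pck-3 had 7.30 CPM there, 1.09 and 1.83 CPM in replicates 2 and 3 and between 0.877 and 0.928 CPM after ilimaquinone.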
